A study of Mus musculus with 12 samples.

Results

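Hes6 and the Notch pathway genes around it were followed through hypoxia and through transfection of FOXA2 and HIF-1a in mouse prostate tumour cells. The 10 genes were Hes6, Hes1, Hey1, Notch1, Notch2, Notch4, Jag1, Jag2, Rbpj and Numb, taken by symbol with every probe that carries the symbol. Symbols could be read only for the 26415 probes of a processed table the authors also deposited, out of 45281 probes on the array. Each of the 26415 had a detection p under 0.1 on an array, so dimmer probes carry no symbol here. Among the 26415, the 10 genes had 17 probes, and 9 of the 10 had at least 1. Notch2 had 0 named probes and is not analysed here, which does not show that the array lacks a probe for it. The same limit holds for the gene lists and markers below. Of the 17 probes, 9 probes of 6 genes were bright enough to be tested, as were 17436 probes in all.

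The cells were TRAMP-C, a line grown from the prostate tumour of a male C57BL6 TRAMP mouse, a strain whose transgene directs a viral oncogene to the prostate epithelium, and the labels call the cells wild-type. They had been given plasmids for FOXA2 and HIF-1a together, for FOXA2 alone, for HIF-1a alone, or empty pcDNA as the control, by nucleofection. At 48 h after transfection the cells went into hypoxia (1% oxygen) or normoxia for 12 h, so every array, controls included, came from transfected cells. Each transfection had 2 hypoxia arrays and 1 normoxia array, 12 in all. The study followed Hes6 up as a gene of interest, and its title names concerted activity of HIF and FOXA2 in neuroendocrine prostate tumours as its subject.

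Notch signalling passes between touching cells. Ligands of the Jagged and Delta-like families on one cell bind Notch receptors on the next, the receptor is cut, and its freed intracellular part joins the DNA-binding protein RBPJ to switch on repressors of the Hes and Hey families. Hes6 is an unusual member of that family: it binds Hes1 and opposes it, and it promotes neuronal differentiation. Numb holds Notch signalling down by directing receptors to endocytosis.

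Mean probe intensity was 298 to 379.8 on 11 arrays and 559 on the first hypoxia replicate of FOXA2+HIF-1a, which stood apart. Between 15322 and 17182 probes per array were detected, meaning brighter than background at a detection p under 0.01. The arrays lay on 2 slides. Slide 1 held 3 hypoxia and 3 normoxia arrays, slide 2 held 5 hypoxia and 1 normoxia, and all 4 normoxia arrays carried replicate number 1. The treatment was done in duplicate according to the labels, but nothing says that the duplicates were separate cultures, so the p-values rest on an array-to-array spread that may be technical. Foxa2 lay at 9.27 to 10.98 log2 intensity on the 6 arrays with its plasmid and at 6.14 to 7.07 on the 6 without it. Hif1a lay at 11.98 to 13.18 on the 6 arrays with its plasmid and at 9.06 to 9.64 on the 6 without. Of the prostate epithelial markers, 5 of 9 had a probe. Krt14 was detected on all 12 arrays, Cdh1 on 11 and Krt8 on 8, while Krt18 and Krt5 were detected on 0. The mesenchymal markers Vim, Cdh2, Fn1 and Sparc were detected on all 12. The 1 neuroendocrine marker with a probe, Syp, was detected on 1 array, and the 2 immune and 4 endothelial markers with a probe were detected on 0. In such bulk RNA, fewer cells expressing a gene and less of its RNA per cell cannot be told apart.

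Hes6 lies on mouse chromosome 1, and RefSeq gives it more than 1 start. The 250 bases before each of its starts are printed because Hes6 showed the widest difference between oxygen levels among the 10 genes. They are taken from RefSeq on build GRCm38.p6, 5' to 3' on the gene's own strand, which is the minus strand. Capitals mark exact matches to GCGTG, a form of the hypoxia response core (CACGC where it lies on the opposite strand), and to GTAAATA, a form of the forkhead core. The windows are chr1:91414039-91414288 and chr1:91413223-91413472.
Hes6 window 1: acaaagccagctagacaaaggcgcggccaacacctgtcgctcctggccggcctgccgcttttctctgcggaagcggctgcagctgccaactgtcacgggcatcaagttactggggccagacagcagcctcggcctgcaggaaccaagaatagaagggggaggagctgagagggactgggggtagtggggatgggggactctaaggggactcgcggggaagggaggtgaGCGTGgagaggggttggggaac
Hes6 window 2: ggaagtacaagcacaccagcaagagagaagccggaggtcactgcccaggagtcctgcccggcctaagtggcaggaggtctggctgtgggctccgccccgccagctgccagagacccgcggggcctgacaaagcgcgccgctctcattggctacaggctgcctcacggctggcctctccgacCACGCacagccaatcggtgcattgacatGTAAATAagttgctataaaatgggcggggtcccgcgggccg
In window 1 GCGTG begins 22 bases before the start, and in window 2 it lies on the other strand 69 bases before the start. GTAAATA begins 41 bases before the start in window 2. Neither window holds ACGTG, the usual hypoxia response core, TGGGAA, the RBPJ core, or TGTTTA, the usual forkhead core. All motifs were searched on both strands, and GCGTG and GTAAATA were added after the Hes6 windows had been read. Of 32851 windows of the same length, 28.2% held GCGTG, 2.73% GTAAATA, 16.6% ACGTG, 21.6% TGGGAA and 12.0% TGTTTA. A match is a description of the letters and shows no binding.

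The table of promoters held 12 windows of 8 of the 10 genes. It holds none for Hes1 and Hey1. Jag1, whose RNA fell in hypoxia, is shown beside Hes6 because its window holds GCGTG as well, in 2 places, 248 bases and, on the other strand, 171 bases before the start. It lies at chr2:137116521-137116770 on the minus strand.
Jag1 window: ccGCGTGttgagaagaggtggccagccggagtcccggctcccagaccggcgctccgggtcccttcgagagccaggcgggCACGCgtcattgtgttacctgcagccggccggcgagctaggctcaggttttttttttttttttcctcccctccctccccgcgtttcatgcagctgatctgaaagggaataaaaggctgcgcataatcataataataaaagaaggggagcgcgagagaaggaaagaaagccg
GCGTG was found for 5 of the 8 genes with a window: Hes6, which was higher in hypoxia, Jag1, which was lower, Notch4, which did not pass, and Jag2 and Notch2, with no level measured here. The share of 28.2% counts windows, not genes, and a gene can have several windows. It is taken over 32851 windows, which do not cover every chromosome. The member windows with GCGTG were 57.2 to 87.2% G and C, against a median of 52.4% over those 32851 windows, so the count is a description. Of the Numb windows, the second alone had matches, ACGTG and TGTTTA. The 2 Rbpj windows overlap and held TGGGAA at 2 sites, of which 1 lies in both windows, and the second held ACGTG as well.

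In hypoxia, 5 of the 9 tested member probes were higher than in normoxia, 1 was lower and 3 did not pass (limma, adjusted p under 0.05). Over all 17436 probes 12.4% were called higher and 14.1% lower, 26.5% in either direction. The median log2 difference of the 9 probes was 0.70, against -0.02 over all probes. The 5 higher probes were the 3 of Hes6, the 1 of Hey1 and the brightest of Numb, and the lower one was that of Jag1. Hes1, Notch4 and the second Numb probe did not pass. The 2 dimmer Hes6 probes and the second Numb probe were bright enough to be tested through hypoxia arrays alone, which favours a higher hypoxia value, so the count and the median are descriptions.

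Hes6 was measured on all 12 arrays by its brightest probe, ILMN_2791952. In hypoxia it stood at 7.93 and 9.15 log2 intensity with FOXA2+HIF-1a and at 8.20 and 8.79 with FOXA2. It stood at 8.80 and 8.99 with HIF-1a and at 8.50 and 8.67 with the control vector. In normoxia it stood at 7.17 with FOXA2+HIF-1a, 6.92 with FOXA2, 7.12 with HIF-1a and 6.86 with the control vector. All 8 hypoxia arrays lay above all 4 normoxia arrays, a gap seen in that direction for 9.82% of all probes. The difference was 1.61 ± 0.20 on the log2 scale (SE, 95% interval 1.17 to 2.05), or 3.05-fold (limma, adjusted p = 0.000234). By this difference Hes6 came 108th of 9609 genes, of which 1326 were called higher.

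All 4 hypoxia groups ranked above all 4 normoxia groups by this probe. The hypoxia means were 8.54 with FOXA2+HIF-1a, 8.49 with FOXA2, 8.89 with HIF-1a and 8.59 with the control vector. Ordered by level, HIF-1a came first, then control, FOXA2+HIF-1a and FOXA2, and these neighbours were 0.30, 0.05 and 0.04 apart. The 2 arrays of FOXA2+HIF-1a had an SD of 0.86 and the 2 of FOXA2 an SD of 0.42, each wider than all of those steps. The step from the lowest hypoxia mean to the highest normoxia array was 1.32. The 4 normoxia arrays, between 6.86 and 7.17, had 1 array per group and so no test between them.

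The other Hes6 probes were dimmer. The second, ILMN_2608043, was above background on 7 of the 8 hypoxia arrays and on 0 of the 4 normoxia arrays. It ran from 5.13 to 6.23 with a median of 5.79 in hypoxia, and stood at 4.84, 4.83, 4.51 and 5.19 in normoxia with FOXA2+HIF-1a, FOXA2, HIF-1a and control. It was 0.95 ± 0.19 higher in hypoxia, at least 1.48-fold (limma, adjusted p = 0.00364). The "at least" sets the hypoxia mean against the normoxia mean, with each normoxia value raised to the dimmest detected signal on its array. The third probe, ILMN_1214126, was above background on 6 hypoxia arrays and 0 normoxia arrays, and was 0.86 ± 0.17 higher in hypoxia, at least 1.08-fold (adjusted p = 0.00432). With these dim probes the groups overlapped: the lowest hypoxia array, FOXA2 replicate 1 in both cases, lay within the normoxia range.

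**Figure D1:**
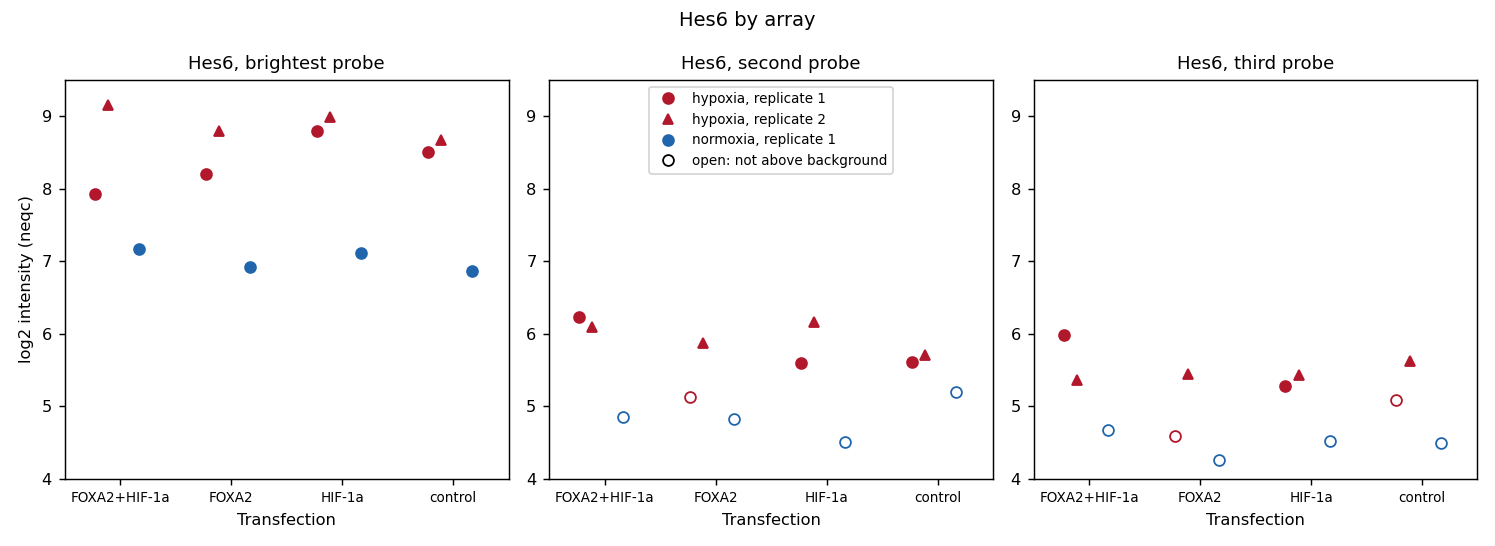
Log2 intensity (vertical axis) of the 3 Hes6 probes on each of the 12 arrays, by transfection along the horizontal axis, with hypoxia replicates 1 (red circles) and 2 (red triangles) left of the normoxia array (blue circles). Open symbols are arrays on which the probe was not above background. For the brightest probe all hypoxia arrays, 7.93 to 9.15, lie above the normoxia arrays, 6.86 to 7.17.

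The 3 Hes6 probes did not agree on FOXA2+HIF-1a in hypoxia. There the brightest probe was 1.22 log2 units higher on replicate 2 than on replicate 1, whereas the other probes differed by -0.14 and -0.61. Before normalization the brightest probe read 475.2 on replicate 2 and 483 on replicate 1. The second probe read 76.7 on replicate 2 and 167.3 on replicate 1, the array with the mean intensity of 559. With background correction but no normalization between arrays, the brightest probe stood at 8.83 on both replicates. Without replicate 1 of FOXA2+HIF-1a in hypoxia, Hes6 was 1.75 higher in hypoxia over the other arrays (limma, adjusted p = 1.18e-05).

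The brightest Hes6 probe was also higher on replicate 2 than on replicate 1 in all 4 transfections, by 0.54 on average. Since every normoxia array was a replicate 1, the difference between oxygen levels was also fitted with a term for replicate, a block. This gave 1.34 and still passed, against 1.61 without the block. With the block the difference itself comes from the replicate 1 arrays alone, and the replicate 2 arrays add only to the estimate of spread. On slide 1 alone the Hes6 difference was 1.53, with 3 arrays of each oxygen level (limma, adjusted p = 0.0012). On slide 2 the 1 normoxia array was that of FOXA2+HIF-1a, so the 1.37 found there is the difference of this transfection alone. With the slide as a block the Hes6 difference over all transfections was 1.48.

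Hey1 and Hes1 are repressors that Notch signalling switches on. Hey1 (ILMN_2690596) was 1.31 ± 0.16 higher on the log2 scale in hypoxia, 2.49-fold (limma, adjusted p = 0.000199). It stood in hypoxia at 6.33 and 6.54 log2 intensity with FOXA2+HIF-1a, 6.46 and 7.02 with FOXA2, 6.43 and 7.05 with HIF-1a and 6.71 and 6.86 with the control vector. In normoxia it stood at 5.50 with FOXA2+HIF-1a, 5.47 with FOXA2, 5.35 with HIF-1a and 5.12 with the control vector, the last not above background. No hypoxia array overlapped the normoxia arrays. As with Hes6, replicate 2 was higher than replicate 1 in 4 of 4 transfections, by 0.39 on average, and the difference with the replicate block was 1.12. By its difference Hey1 came 174th of 9609 genes.

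Hes1 (ILMN_1247691), the classical Notch output that Hes6 opposes, showed no such gap. It stood in hypoxia at 7.68 and 7.62 log2 intensity with FOXA2+HIF-1a, 7.38 and 7.25 with FOXA2, 8.04 and 7.16 with HIF-1a and 7.82 and 7.49 with the control vector. In normoxia it stood at 7.30 with FOXA2+HIF-1a, 7.32 with FOXA2, 7.69 with HIF-1a and 7.62 with the control vector. The normoxia arrays lay within the range of the hypoxia arrays, and the difference of 0.07 ± 0.15 had a 95% interval from -0.27 to 0.41 (limma, adjusted p = 0.76). Here replicate 2 was lower than replicate 1 in 4 of 4 transfections, by a mean difference of -0.35. Replicate 1 in hypoxia lay above the normoxia array, also a replicate 1, in all 4 transfections, and the difference with the replicate block was 0.25 ± 0.14, which did not pass either (adjusted p = 0.227).

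Numb, the endocytic inhibitor of Notch, was 0.70 ± 0.10 higher in hypoxia by its brightest probe, ILMN_2418524, or 1.62-fold (limma, adjusted p = 0.00067). Its hypoxia arrays stood at 10.07 and 10.27 log2 intensity with FOXA2+HIF-1a, 9.98 and 10.17 with FOXA2, 10.21 and 10.05 with HIF-1a and 10.17 and 10.18 with the control vector. Its normoxia arrays stood at 9.30 with FOXA2+HIF-1a, 9.63 with FOXA2, 9.46 with HIF-1a and 9.36 with the control vector. The arrays of the 2 oxygen levels did not overlap, and in hypoxia replicate 2 differed from replicate 1 by -0.16 to 0.20 in the 4 transfections. The second Numb probe, ILMN_2678576, was above background on 5 hypoxia arrays and 0 normoxia arrays, and its difference of 0.44 ± 0.15 did not pass (adjusted p = 0.0533). The other 3 Numb probes were above background on at most 1 array and were not tested.

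Jag1, a Notch ligand, was the member that fell. Its probe ILMN_1257077 was lower in hypoxia by a log2 difference of -0.77 ± 0.12, 0.586 of the normoxia level (limma, adjusted p = 0.00105). In hypoxia it stood at 5.37 and 5.64 log2 intensity with FOXA2+HIF-1a, 6.23 and 5.77 with FOXA2, 5.57 and 5.55 with HIF-1a and 6.0 and 5.64 with the control vector. In normoxia it stood at 6.11 with FOXA2+HIF-1a, 6.80 with FOXA2, 6.53 with HIF-1a and 6.53 with the control vector. Within each transfection both hypoxia arrays lay below the normoxia array. For the first FOXA2+HIF-1a hypoxia array this holds only after normalization: it read 97.8 before, against 95 on the FOXA2+HIF-1a normoxia array. Across transfections the ranges overlapped, as FOXA2 replicate 1 in hypoxia lay above FOXA2+HIF-1a in normoxia.

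Notch4 was the 1 receptor measured above background. Its brightest probe, ILMN_1220697, stood in hypoxia at 5.97 and 5.44 log2 intensity with FOXA2+HIF-1a, 6.22 and 6.39 with FOXA2, 6.67 and 6.69 with HIF-1a and 6.11 and 6.20 with the control vector. In normoxia it stood at 5.99 with FOXA2+HIF-1a, 5.63 with FOXA2, 5.90 with HIF-1a and 6.03 with the control vector. Over all transfections the difference of 0.33 ± 0.17 between hypoxia and normoxia did not pass (limma, adjusted p = 0.176). It did pass when either the FOXA2+HIF-1a normoxia array (0.53, adjusted p = 0.0465) or the second FOXA2+HIF-1a hypoxia array (0.42, adjusted p = 0.0448) was left out. The receptor Notch1, the second Notch4 probe, the ligand Jag2 and both probes of Rbpj, the DNA-binding partner of Notch, were above background on 0 of 12 arrays and had no measured level.

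**Figure D2:**
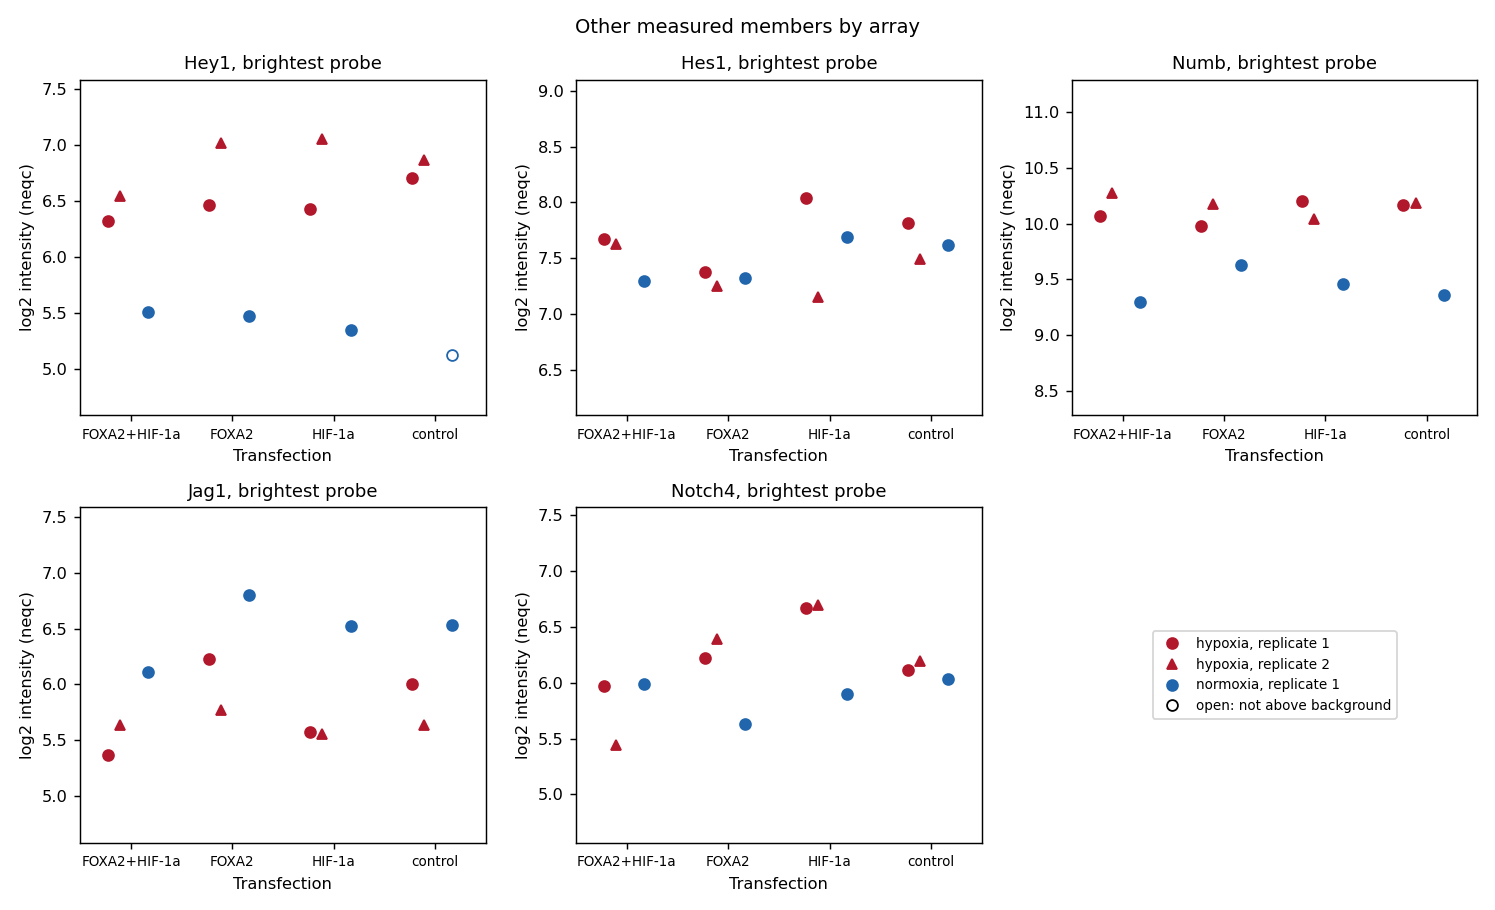
Log2 intensity (vertical axes, each with its own range) of the brightest probe of Hey1, Hes1, Numb, Jag1 and Notch4 on each array, by transfection, with hypoxia (red) left of normoxia (blue). Hey1 and Numb are higher on every hypoxia array, Jag1 lies lower in hypoxia within each transfection, and the oxygen levels overlap for Hes1 and Notch4.

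**Figure D3:**
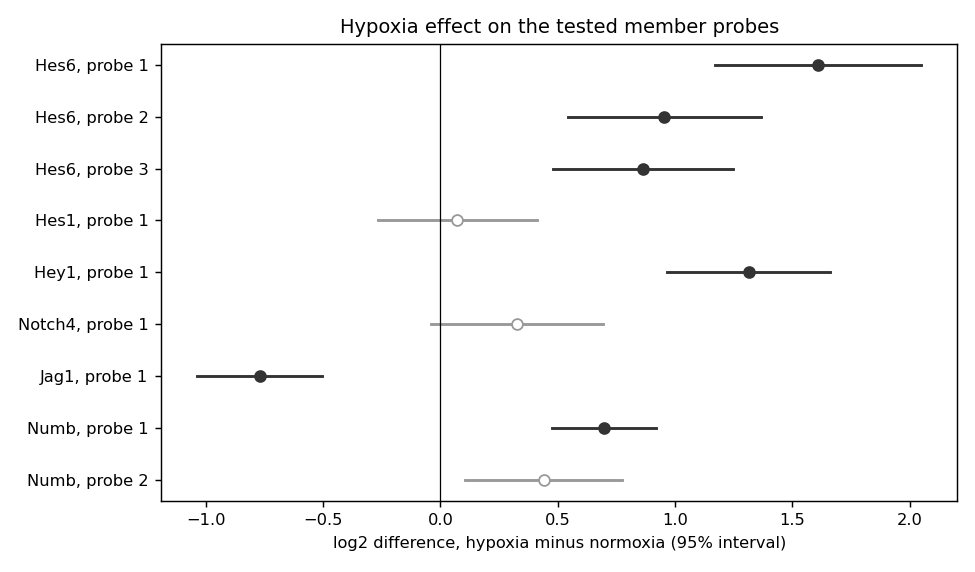
Log2 difference of hypoxia minus normoxia (horizontal axis) for the 9 tested member probes, with 95% intervals from the limma fit over 12 arrays. Filled points passed the test. The differences run from -0.77 for Jag1 to 1.61 for the brightest Hes6 probe.

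Transfection moved none of the tested member probes past the threshold. In hypoxia, 0 of 9 were called in each of 6 comparisons (limma, adjusted p under 0.05), where 0% of all probes were called too. The uncalled probes include those of Foxa2 and Hif1a, whose levels did not overlap between arrays with and without their plasmid. The comparisons thus missed differences of that size, and a member that was not called may still have changed. At an unadjusted p under 0.05 the probes called numbered 42 of 17436 for FOXA2 against control, 145 for HIF-1a against control and 937 for both against control. They numbered 1483 for both against FOXA2, 795 for both against HIF-1a and 439 for the interaction, which asks whether both plasmids together differ from the sum of their single effects. The member probes among them numbered 0, 1, 0, 1, 1 and 1 in that order, and each was Notch4.

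For Hes6 the brightest probe differed by -0.05 with FOXA2+HIF-1a against the control vector (95% interval -0.95 to 0.84). It differed by -0.09 with FOXA2 (-0.99 to 0.80) and by 0.30 with HIF-1a (-0.59 to 1.20) against the same control arrays. The intervals reach nearly 1 log2 unit or more on one side, so with 2 arrays per group changes of that size are not excluded. The interaction was -0.26 ± 0.55. Without the first FOXA2+HIF-1a hypoxia array, both plasmids stood 0.56 above control and the interaction was 0.35, still not called (adjusted p = 0.569 and 0.977). Without normalization between arrays both plasmids stood 0.27 above control and the interaction was 0.48, against -0.05 and -0.26 with it.

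Notch4 was the member with the smallest unadjusted p in these comparisons. With FOXA2+HIF-1a its log2 difference from HIF-1a alone was -0.97 ± 0.22 (limma, unadjusted p = 0.00235, adjusted p = 0.977). Against FOXA2 alone it was -0.60 (adjusted p = 0.554), and the interaction was -1.12 ± 0.31 (unadjusted p = 0.00717, adjusted p = 1.00). With HIF-1a against control it was 0.53 (unadjusted p = 0.0445). In hypoxia both FOXA2+HIF-1a arrays, 5.97 and 5.44, lay below all 6 arrays of the other transfections, 6.11 to 6.69. Before normalization the first of them read 143.3, the highest of the 12 arrays, and the second 57.7, the lowest. The first is the array with the mean intensity of 559, so its low place holds only after normalization. No comparison passed the adjusted threshold.

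Within single transfections, where 2 hypoxia arrays stand against 1 normoxia array, 0 of the 9 member probes were called. Over all probes 0.533% were called with FOXA2+HIF-1a, 0.591% with FOXA2, 0.7% with HIF-1a and 0.562% with the control vector. At an unadjusted p under 0.05, 5 of 9 member probes passed with FOXA2+HIF-1a, 4 with FOXA2, 6 with HIF-1a and 4 with control. Over all probes 12.6%, 8.86%, 11.3% and 8.56% passed in the same order. The 5 with FOXA2+HIF-1a include both dimmer Hes6 probes, and the 6 with HIF-1a include the second Hes6 probe. These dim probes were bright enough to be tested through hypoxia arrays alone, which favours a higher hypoxia value, so the counts are descriptions. The Hey1 differences between hypoxia and normoxia were 0.93 with FOXA2+HIF-1a, 1.27 with FOXA2, 1.39 with HIF-1a and 1.67 with the control vector (limma, adjusted p = 0.336, 0.292, 0.179 and 0.122). With the replicate block, Hey1 was called with HIF-1a (1.20 ± 0.23, adjusted p = 0.0411) and with the control vector (1.47 ± 0.23, adjusted p = 0.021). The tests of whether a response differed from that of the control called 0 of 9 member probes for each plasmid, and 0% of all probes. At an unadjusted p under 0.05 those tests counted 149 probes for FOXA2+HIF-1a, 19 for FOXA2 and 67 for HIF-1a, with 0 member probes. For Hes6 the responses differed from that of the control by -0.36, -0.15 and 0.05 in the same order, each ± 0.67.

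**Figure D4:**
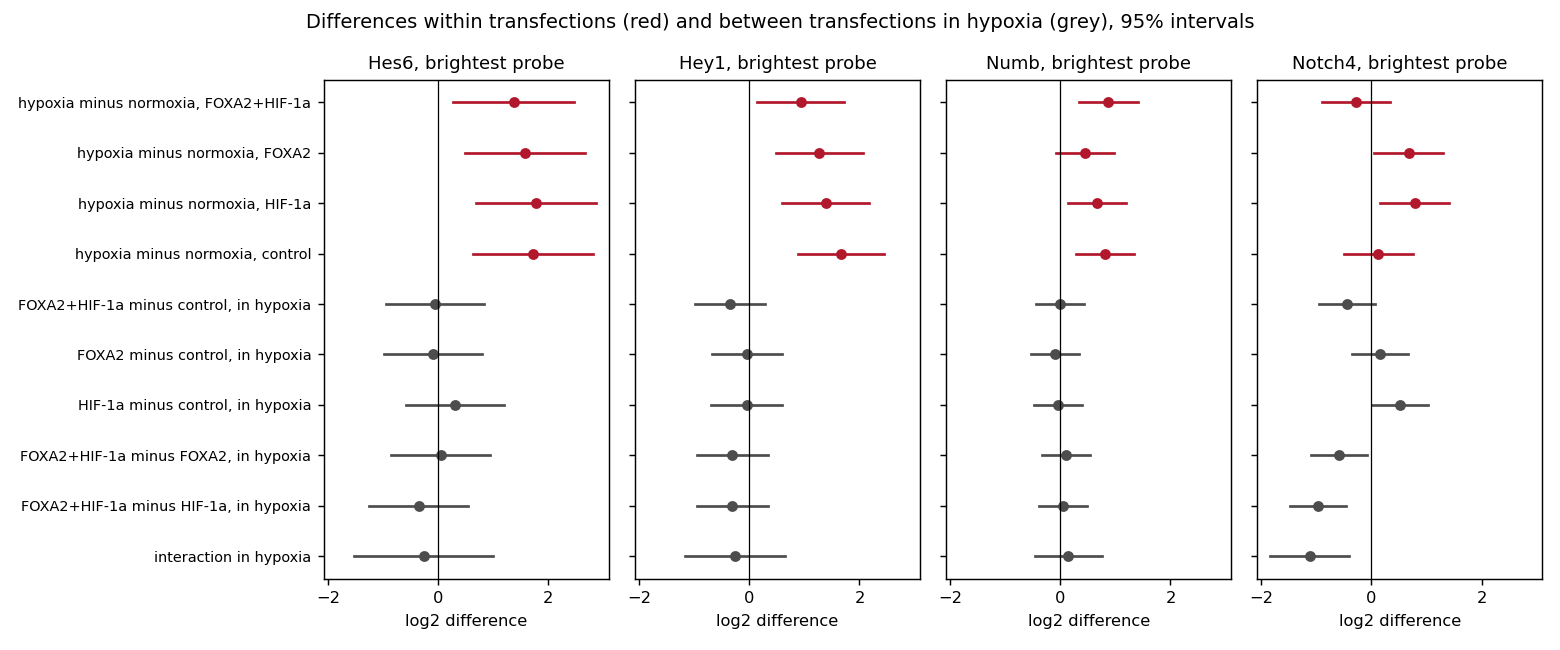
Log2 differences (horizontal axis) with 95% intervals for the brightest probes of Hes6, Hey1, Numb and Notch4: hypoxia minus normoxia within each transfection (red) and between transfections in hypoxia (grey). Hes6 is 1.37 to 1.78 higher in hypoxia in each transfection, and its differences between transfections lie between -0.36 and 0.30.

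The wider Notch pathway was read from a list of 74 other symbols, of which 49 had a probe and 37 genes were tested, each by its brightest tested probe. In hypoxia 5 were higher, 5 lower and 27 did not pass (limma, adjusted p under 0.05), with a median log2 difference of 0.06. Over the brightest probes of all 9609 genes, 13.8% were called higher and 15.2% lower, so the list's shares were near the background.

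Hey2, the other Hey repressor measured, was the highest of the list. It was above background on 7 hypoxia arrays and 0 normoxia arrays, ran from 5.17 to 5.83 log2 intensity in hypoxia and from 4.29 to 4.60 in normoxia, and was 0.99 ± 0.12 higher in hypoxia, at least 1.14-fold (adjusted p = 0.000251). Like the dim Hes6 probes it was bright enough to be tested through hypoxia arrays alone, which favours a higher hypoxia value, so its place in the list and among the 5 higher genes is a description. Of the genes that modify receptors or send ligands to endocytosis, 4 were tested. Neurl1a, whose fly counterpart is a ubiquitin ligase of Notch ligands, rose by 0.91 ± 0.27 (adjusted p = 0.0269), against 0.43 with the replicate block and 0.56 with the slide block, both still called. Mib2, another ligase of this kind, rose by 0.58 ± 0.16 (adjusted p = 0.0214). It was 0.34 with the replicate block (adjusted p = 0.0444), and with the slide block the call was lost (0.41, adjusted p = 0.0502). For both genes the hypoxia and normoxia arrays overlapped. The Neurl1a call ended without any 1 of the 4 normoxia arrays or without control replicate 2 in hypoxia, and that of Mib2 without any 1 of the 3 normoxia arrays other than control (adjusted p of 0.0502 to 0.118 for Neurl1a and 0.0575 to 0.116 for Mib2). Poglut1, which adds glucose to Notch receptors, fell by 0.40 ± 0.09 (adjusted p = 0.00882). On replicate 1 arrays alone the calls of Poglut1 (-0.33, adjusted p = 0.0559) and Mib2 (0.34, adjusted p = 0.0957) ended.

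The protease subunits that cut the receptor gave 1 rise and 1 fall among 8 tested. Aph1b, a subunit of gamma-secretase, ran from 7.67 to 8.38 log2 intensity in hypoxia and from 7.45 to 7.60 in normoxia, and rose by 0.53 ± 0.13 (adjusted p = 0.0125). Its call ended without the FOXA2 or the control normoxia array (adjusted p = 0.0627 and 0.0661), and on replicate 1 arrays alone (0.37, adjusted p = 0.0682). Psen2, a catalytic subunit of the same complex, ran from 5.13 to 5.74 in hypoxia and from 5.96 to 6.24 in normoxia, with a difference of -0.64 ± 0.10 (adjusted p = 0.000958). In the nuclear complex, 1 of 7 rose and 2 fell. The coactivator Maml1 rose by 0.63 ± 0.13 (adjusted p = 0.00422), while its relative Maml2 had a difference of -0.53 ± 0.09 (adjusted p = 0.00205) and the histone acetyltransferase Kat2b one of -0.61 ± 0.15 (adjusted p = 0.0102). Kat2b had -0.38 with the replicate block, still called, and its call ended without the FOXA2 normoxia array (-0.57, adjusted p = 0.053). Over the whole list 21 dimmer probes of 17 genes were tested as well. The second probes of Maml2 and Kat2b were lower in hypoxia too, at -0.78 and -0.69 (adjusted p = 0.0051 and 0.0194). Probes of Tle1 (0.34, adjusted p = 0.032) and Dtx2 (0.52, adjusted p = 0.0327) were higher, while the brightest probes of these genes did not pass, and the other 17 dimmer probes did not pass.

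Fbxw7, part of a ubiquitin ligase that marks the Notch intracellular domain for breakdown, was the 1 of 7 turnover and inhibitor genes that fell, by 0.50 ± 0.14 (adjusted p = 0.0255). Its call ended without any 1 of the 4 normoxia arrays or without control replicate 2 in hypoxia (adjusted p of 0.0518 to 0.131), and with the replicate or slide block (adjusted p = 0.0527 and 0.0675). Among the corepressors, Tle1 included, 0 of 9 passed by the brightest probe. The ligand Dlk1 differed by 0.25 ± 0.15 (adjusted p = 0.242), and the receptor Notch3 and the 1 proneural gene with a probe were not tested. In the comparisons of plasmids and of responses, 0 of the 37 were called, where 0% of all probes were called too. With 1 array left out at a time, 2 to 7 of the 37 were called higher and 3 to 7 lower, the fewest without the FOXA2 normoxia array. On replicate 1 arrays alone, 3 of the 5 higher genes and 3 of the 5 lower genes kept their calls. On slide 1 alone 3 were higher and 2 lower, and on slide 2 alone 0 were called.

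**Figure D5:**
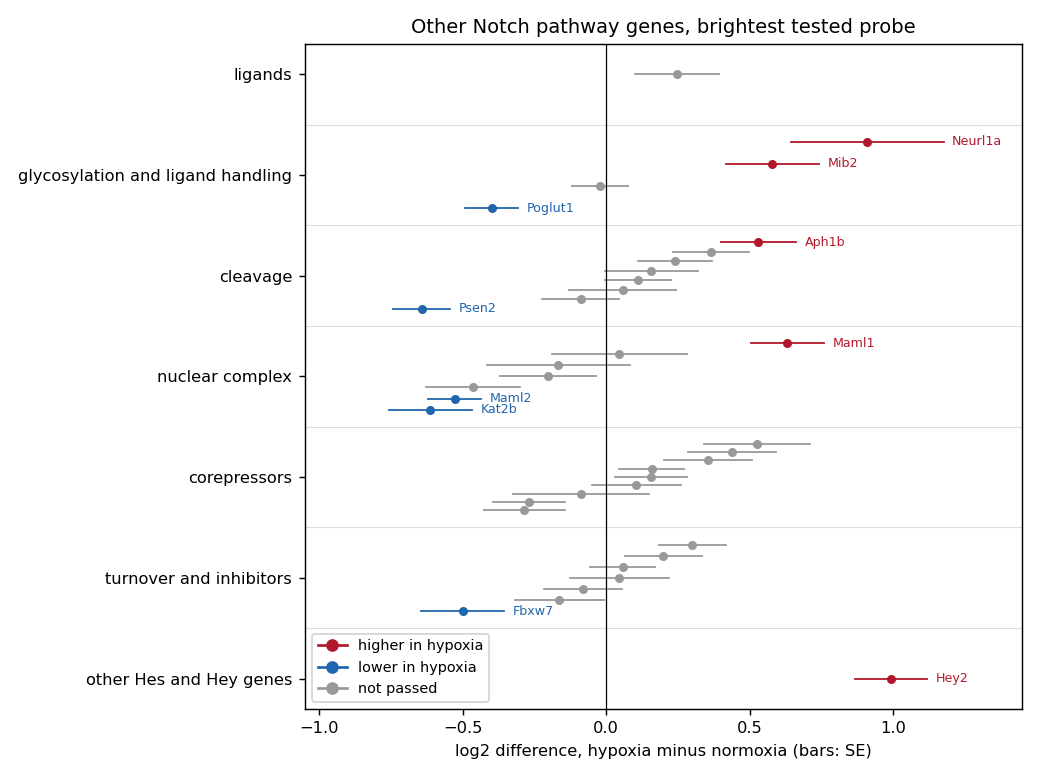
Log2 difference of hypoxia minus normoxia (horizontal axis, bars are SE) for the 37 tested genes of the wider Notch list, grouped by role. Red genes were called higher (5), blue genes lower (5) and grey genes did not pass (27). Named genes run from -0.64 for Psen2 to 0.99 for Hey2.

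The genes whose profile over the 12 arrays lay closest to that of the brightest Hes6 probe were Ctns, Foxo3, Casp6, Eif1b and Setbp1. Likeness was the root mean squared difference of centred log2 profiles, which was 0.152 for Ctns, 0.182 for Foxo3, 0.192 for Casp6, 0.195 for Eif1b and 0.199 for Setbp1, against a median of 0.831 over 9608 genes. All profiles share the same arrays and their scaling.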

How the data were processed

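RNA of the 12 cell samples was amplified, biotin-labelled and hybridised to Illumina Mouse-6 BeadChips, per the labels' protocols, from 500 ng of total RNA each. The authors deposited a table of linear probe intensity, not normalized, for 45281 probes, with a detection p-value that the authors deposited beside each intensity. Which software made it is not given here. The authors also deposited a processed intensity table of 26415 probes, whose background correction and normalization are unknown and which served as an alternative. Its array medians were 86.1 to 86.2, and its columns correlated at 0.981 to 1.00 with the non-normalized intensity of their own array. Every such column was used (0 left aside), and 0 pairs of arrays were identical.

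Intensities were background-corrected and quantile normalized by the neqc function (limma 3.58.1, R 4.3.3, offset 16) on the log2 scale. A probe was tested where its detection p was under 0.01 on at least 2 arrays, which left 17436, of which 14981 had 1 gene symbol in the platform annotation, 5 several and 2450 none here. All 17 member probes matched the RefSeq gene table by Entrez ID, with 0 symbols updated. The precision is limited by the number of arrays.

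Each fit was made by lmFit and eBayes with Benjamini-Hochberg adjustment over all tested probes at 0.05. For hypoxia against normoxia the model had terms for transfection and oxygen. All other comparisons used a model with one mean for each group, which assumes that a lone normoxia array varies like the other groups. A value after ± is the standard error of its log2 difference. The fits were tested on simulated data with noise independent between arrays, so effects of replicate or slide were not covered. Promoter windows were searched with Python 3.11.15, and protein sequences were not used here.

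The member genes and gene lists were chosen with earlier results of these data known. Named genes were all members, each called gene of the wider Notch list, the 5 genes closest to Hes6 in profile, Foxa2 and Hif1a. Dlk1 and Notch3, as the lone genes of their roles, and Tle1 and Dtx2, for a dimmer probe that was called, were named after their values were seen.

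Replicate numbers come from the sample titles. Hypoxia arrays of one number deviated together from their group means: over 17436 probes the correlation was 0.473 between FOXA2+HIF-1a and control, 0.764 between FOXA2 and control and 0.561 between HIF-1a and control. It was 0.488 between FOXA2+HIF-1a and FOXA2, 0.279 between FOXA2+HIF-1a and HIF-1a, and 0.537 between the single plasmids. For control, FOXA2 and HIF-1a, hypoxia replicate 1 lay on slide 1 and replicate 2 on slide 2. Among these, replicate number and slide cannot be told apart. Both FOXA2+HIF-1a hypoxia arrays lay on slide 2. Alternatives were the replicate block, the slide as a block, other background corrections and filters, the processed table, 1 probe per gene, single slides, replicate 1 alone, group means and each array left out. Over all transfections the replicate block gives the same difference between oxygen levels as replicate 1 alone, as no normoxia array is a replicate 2. On slide 2 alone that difference is the one of FOXA2+HIF-1a, whose normoxia array was the only one there. Slide 2 alone, no normalization between arrays and scaling to one median were chosen after seeing the data.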

Additional observations from a re-analysis of the deposited data

How the results depend on the processing

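Between hypoxia and normoxia 6 of 9 member probes were called, against 0 on slide 2 alone, 3 without normalization between arrays and 6 to 7 with 1 array left out, where 7 includes Notch4 or the second Numb probe. Without the filter on dim probes, and in the authors' processed table, 8 of 17 were called. Over all probes the 4628 calls became 2918 with 1 probe per gene, 2518 with group means, 2974 on slide 1 alone, 143 on slide 2 alone, 1146 without normalization between arrays and 2711 to 5351 with 1 array left out. The calls numbered 2951 with the FOXA2+HIF-1a normoxia array left out, 2866 with that of FOXA2, 2711 with that of HIF-1a and 3054 with that of control left out. The second Hes6 probe lost its call on slide 1 alone (0.60, adjusted p = 0.0608) and without normalization between arrays (0.94, adjusted p = 0.0521). The third Hes6 probe (0.87, adjusted p = 0.0758) and the brightest Numb probe (0.63, adjusted p = 0.0789) lost theirs without that normalization. The second Numb probe passed on replicate 1 arrays alone (0.41, adjusted p = 0.0397) and with arrays scaled to one median (0.50, adjusted p = 0.0323).

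With the replicate block, 1 member probe, Hey1, was called within control and 1, again Hey1, within HIF-1a, against 0 without the block, and it changed no other call of a member probe. With the slide as a block the Hes6 difference of both plasmids from FOXA2 was -0.12, against 0.04.

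Differences that did not pass changed sign in places. Notch4 was -0.28 in hypoxia on slide 2 alone, where the difference is that of FOXA2+HIF-1a and not of all transfections. Without normalization between arrays Hes6 stood at 0.27 for both plasmids minus control, 0.15 for both minus HIF-1a and 0.48 for the interaction. With 1 array left out, Hes1 ran from -0.020 to 0.17 in hypoxia minus normoxia. Hes6 ran from -0.39 to 0.20 for FOXA2 minus control, -0.66 to 0.56 for both minus control, -0.57 to 0.65 for both minus FOXA2, -0.97 to 0.25 for both minus HIF-1a and -0.87 to 0.35 for the interaction. Its response minus that of the control ran from -0.97 to 0.25 with both, -0.45 to 0.14 with FOXA2 and -0.043 to 0.15 with HIF-1a. The cause was not tested. Responses within a transfection could not be fitted without its normoxia array. Probes near background limit what the dim Hes6 and Numb probes can show.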
